A study of Mus musculus with 4 samples.

Results

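E-proteins and ID factors are the products of 7 mouse genes, *Tcf3*, *Tcf4* and *Tcf12* (E-proteins) and *Id1*, *Id2*, *Id3* and *Id4* (ID factors). They were found by symbol among the 32285 genes counted in each of 4 single-cell libraries of embryonic hearts, where each symbol stood for 1 identifier. The set was chosen by a measured value, the higher *Tcf4* level in mutant chamber endocardium, so the genotype difference in those cells is given below as a description, with no test.

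Hearts with the whole cardiogenic region were collected at E10.5 and single cells were sequenced in droplets (10x Genomics), where a unique molecular identifier (UMI) lets each captured transcript be counted once. Both genotypes carry floxed alleles of *Tie2*, the gene *Tek* in the files, which encodes an angiopoietin receptor of endothelial cells. Control libraries 5 and 7 are labelled Tie2flfl and have no Cre. *Tie2-cko* libraries 6 and 8 are labelled Nfatcre-Tie2flfl and carry a Cre recombinase knocked into *Nfatc1*, a gene of the endocardium, so that Cre and the loss of *Tie2* cannot be told apart. The study's methods state a mixed background of embryos of both sexes, and 2 hearts per genotype from the same litter.

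E-proteins are basic helix-loop-helix (bHLH) transcription factors made in many tissues. They pair with each other or with tissue-restricted bHLH proteins such as TAL1, TWIST1 and HAND2, and these pairs bind short DNA motifs called E-boxes. ID factors have the helix-loop-helix but lack the basic region that contacts DNA, so an E-protein held by an ID factor does not bind an E-box. BMP signalling through SMAD proteins is a well-known activator of *Id* genes, and ID factors and their partners take part in endothelial growth and in the formation of the heart.

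Identifiers and positions below are those of the files and of GENCODE M21 on GRCm38. *Tcf3* (ENSMUSG00000020167) lies at chr10:80409514-80433647 on the minus strand, *Tcf12* (ENSMUSG00000032228) at chr9:71842688-72111871 on the minus strand, and *Tcf4* is ENSMUSG00000053477. *Id1* (ENSMUSG00000042745) lies at chr2:152736251-152737410 on the plus strand, *Id2* (ENSMUSG00000020644) at chr12:25093799-25097140 on the minus strand, *Id3* (ENSMUSG00000007872) at chr4:136143497-136145755 on the plus strand and *Id4* (ENSMUSG00000021379) at chr13:48261228-48266026 on the plus strand. All are protein-coding genes. *Tcf4* is not *Tcf7l2*, whose protein also goes by the name TCF4, and *Tcf3* is not *Tcf7l1*.

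The windows of 250 bases before a RefSeq start site were read for 5 of the 7 genes. No entry was read for *Id1* and *Tcf4*. For *Id2*, *Id3*, *Tcf3* and *Tcf12* the RefSeq start sites lay inside the gene as annotated by GENCODE. The windows of *Id2* and *Id3* and 2 of the 3 *Tcf12* windows lay wholly inside the gene. They are therefore not the bases before its 5′ end. The *Tcf3* window and the *Tcf12* window that holds chr9:72111872-72112069 reached past that end, with 12 and 52 exonic bases inside the gene. E-boxes were searched as CANNTG, a motif that reads the same on both strands. One E-box stood in the windows of *Id2*, *Tcf3* and 2 of the 3 start sites of *Tcf12*, and none in those of *Id3* and *Id4*, while 66.2% of 32851 mouse windows of this length held at least 1. The following, 5′ to 3′ on the strand of the gene, are the stretches of 4 of these windows that lie outside annotated exons (sequence from RefSeq, GRCm38.p6), because the E-box is the site that these proteins themselves bind or keep from being bound. Capitals mark the E-box.
Id2, chr12:25096254-25096342, minus strand: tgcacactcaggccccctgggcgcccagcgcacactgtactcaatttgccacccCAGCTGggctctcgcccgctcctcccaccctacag
Id4, chr13:48260866-48261115, plus strand: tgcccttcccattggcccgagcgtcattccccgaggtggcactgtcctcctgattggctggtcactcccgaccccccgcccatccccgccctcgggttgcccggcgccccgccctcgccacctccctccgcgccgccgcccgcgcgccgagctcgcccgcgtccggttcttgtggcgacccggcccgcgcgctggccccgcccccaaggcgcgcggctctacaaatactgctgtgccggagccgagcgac
Tcf3, chr10:80433648-80433885, minus strand: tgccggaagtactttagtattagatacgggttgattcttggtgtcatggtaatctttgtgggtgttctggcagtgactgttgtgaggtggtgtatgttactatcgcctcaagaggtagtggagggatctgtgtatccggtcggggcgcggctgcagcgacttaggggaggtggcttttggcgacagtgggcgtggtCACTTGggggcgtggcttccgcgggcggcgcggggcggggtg
Tcf12, chr9:72111872-72112069, minus strand: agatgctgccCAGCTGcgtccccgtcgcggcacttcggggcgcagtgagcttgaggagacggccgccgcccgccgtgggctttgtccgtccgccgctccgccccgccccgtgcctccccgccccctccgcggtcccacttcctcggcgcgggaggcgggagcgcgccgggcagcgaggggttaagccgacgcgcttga

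The E-boxes of *Id2* and of this *Tcf12* window were both CAGCTG, which 13.001% of all windows held, and they began 196 and 240 bases before the start site. That of *Tcf3* began 54 bases before it. GGCGCC, a GC-rich SMAD motif, was found once each for *Id2* and *Id4* (9.59% of all windows). CAGAC, the SMAD box, was found 2 times for *Id3* and once for the second *Tcf12* window (42.2% of all windows). TGTTTAC, a forkhead motif, was in none of the windows read (3.17% of all windows), and CAGGTG, an E-box of ZEB and SNAI factors, was in none either (17.2%). CAGCTG and CAGGTG are themselves forms of CANNTG. Both strands were searched, and a match describes letters only.

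After filters and removal of likely doublets, 10097 and 8449 cells of control libraries 5 and 7 and 5684 and 9189 cells of *Tie2-cko* libraries 6 and 8 were kept, with a median of 14898 to 25740 UMIs. Library pairs shared 29 to 62 barcodes. Clusters were named from marker genes with the 7 members left out of the clustering, and each name means cells like that type. They were chamber and cushion endocardial cells (EdCs), vascular endothelial cells, cardiomyocytes (CMs), mesenchymal cells of the cushions (MCs), epicardial, epithelial and red blood cells, and a cluster with both macrophage and megakaryocyte markers. A hepatic endoderm cluster (600 cells) and one with neural and neural crest markers (182 cells) were also named, but held under 20 cells in at least 1 library and enter no comparison. In the latter *Tcf4* was 2.03 to 2.63 UMIs per 10000, above vascular endothelial cells in each library, and *Id4* reached 0.611 in library 6. Clusters without enough markers are called by their leading genes. Chamber EdCs numbered 373, 135, 592 and 445 and cushion EdCs 241, 120, 420 and 403 in libraries 5, 6, 7 and 8.

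*Tek* served as the check of the labels. It stood at 0.895 and 1.01 UMIs per 10000 UMIs in control chamber EdCs and at 0.126 and 0.149 in the *Tie2-cko* libraries, and was the 1 gene of 11481 that passed the edgeR test there (0.00871% of genes). In vascular endothelial cells the genotypes overlapped, at 0.639 and 0.790 in controls against 0.785 and 0.674. Levels throughout are means over the cells of a library of UMIs per 10000. They are compared between cells and libraries, since genes are captured with unequal efficiency.

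*Tcf4* was higher in mutant chamber EdCs, the difference for which the set was chosen. In control libraries 5 and 7 its level in chamber EdCs was 0.772 and 0.748 UMIs per 10000 (589 and 809 UMIs). In *Tie2-cko* libraries 6 and 8 it was 1.21 and 1.28 (757 and 959 UMIs). Both mutant libraries thus lay above both controls, with means of 1.25 ± 0.050 against 0.760 ± 0.017 (SD, n = 2 libraries each), and the fitted log2 fold change was 0.70 ± 0.14 (SE). With every cell thinned to 5000 UMIs, 31.5% and 31.7% of control chamber EdCs held a *Tcf4* UMI, against 43.7% and 46.2% of *Tie2-cko* cells (64.1%, 55.2%, 84.4% and 67.0% without thinning). In red blood cells, which should lack the gene, the thinned share was 1.71% to 2.29% (9.89% to 22.2% without thinning), at a median depth of 22799 to 60176 UMIs against 11039 to 27249 in chamber EdCs.

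Markers of other cell types were read in the same chamber EdCs. The 5 red blood markers summed to 75.7 and 34.3 UMIs per 10000 in the control libraries and to 12.7 and 11.9 in the *Tie2-cko* libraries, all 5 being lower, while *Tcf4* in red blood cells stood at 0.0399 to 0.0600. Of the 7 vascular endothelial markers *Clec1b* was higher in the mutant libraries and *Cldn5* and *Mmrn1* lower, and the sums overlapped (0.848 to 1.46 in controls, 0.997 to 1.49 in *Tie2-cko*). Of 6 cushion markers none was higher and *Wnt4* and *Postn* were lower. Of 7 MC markers 4 were higher (*Fbln2*, *Sox9*, *Pdgfra* and *Col1a1*) and 1 was lower (*Postn*, which is on both lists). The MC sums were 0.607 and 0.633 in controls and 0.639 and 0.828 in *Tie2-cko*. In chamber EdCs without a UMI of any vascular endothelial marker, *Tcf4* was 0.687 and 0.673 in controls and 1.23 and 1.06 in *Tie2-cko*. In those without a UMI of the cushion genes *Nfatc1*, *Wnt4*, *Wnt9b* or *Postn* it was 0.698 and 0.591 against 1.22 and 1.12. Leaving out cells by a UMI can favour shallow cells, and library 6 gave 29 cells to each, with 41 and 46 *Tcf4* UMIs. These subsets hold the same *Tcf4* values that chose the set. The part of red blood RNA and of vascular, cushion and MC cells in the *Tcf4* difference was not tested.

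The *Tcf4* level of mutant chamber EdCs came to that of cushion EdCs. Within a library, the cushion level was 1.40 and 1.46 times the chamber level in control libraries 5 and 7 and 1.02 and 1.00 times in *Tie2-cko* libraries 6 and 8. In cushion EdCs themselves *Tcf4* was 1.08 and 1.09 in controls and 1.24 and 1.28 in *Tie2-cko*. These groups did not overlap, but the difference did not pass the edgeR test (log2 fold change 0.21 ± 0.14, unadjusted p = 0.149). In vascular endothelial cells *Tcf4* was 1.75 and 1.62 in controls and 1.85 and 2.03 in *Tie2-cko* (log2 fold change 0.090 ± 0.219, SE). MCs, which arise from cushion EdCs, had 0.803 and 0.843 against 0.845 and 0.925, and ventricular CMs 0.305 and 0.340 against 0.307 and 0.338, where the genotypes overlapped.

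**Figure D1:**
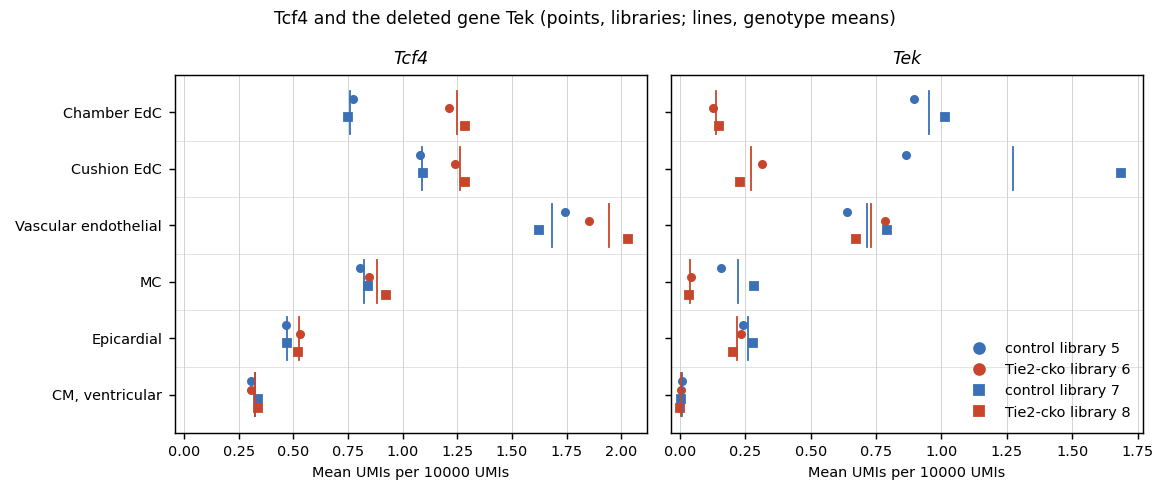
Mean UMIs per 10000 UMIs of *Tcf4* (left) and *Tek* (right) in 6 cell types, with a point for each library (control 5 and 7, blue; *Tie2-cko* 6 and 8, red) and a line at each genotype mean. In chamber EdCs *Tcf4* was 0.748 to 0.772 in controls and 1.21 to 1.28 in *Tie2-cko*, while *Tek* was 0.126 to 0.149 in *Tie2-cko*, and in vascular endothelial cells *Tek* was 0.639 to 0.790 in all 4 libraries.

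*Tcf12*, the E-protein also called HEB, was 0.589 and 0.675 in control chamber EdCs and 0.719 and 0.798 in *Tie2-cko*, without overlap (log2 fold change 0.24 ± 0.14). *Tcf3* was 0.507 and 0.528 in controls and 0.726 and 0.519 in *Tie2-cko*, where only library 6 was high (0.16 ± 0.16). *Tcf4* therefore made up 41.3% and 38.3% of the summed E-protein level in control chamber EdCs and 45.6% and 49.4% in *Tie2-cko*. These shares are compared between libraries only. In cushion EdCs *Tcf12* was 1.18 and 1.23 in controls and 1.40 and 1.37 in *Tie2-cko*, again without overlap and not past the edgeR test (0.15 ± 0.13, unadjusted p = 0.308).

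The E-protein genes differed in where they were highest. Over 13 cell groups that held at least 20 cells in every library, *Tcf4* ranged 36.4-fold, from vascular endothelial cells (1.81 ± 0.17, SD over 4 libraries) to red blood cells (0.0499 ± 0.0083). The 6 groups highest in *Tcf4*, down to MCs (0.854 ± 0.051), overlapped from one to the next, and all MC libraries lay above those of the next group, epicardial cells (0.497 ± 0.031). *Tcf12* ranged 13.1-fold and was highest in MCs (1.54 ± 0.10), which overlapped a cluster led by *Prrx1* and *Col9a1* (1.34 ± 0.17), followed by cushion EdCs (1.29 ± 0.10), and the gap from cushion EdCs to the next group, epithelial cells (0.774 ± 0.097), exceeded the spread of the libraries. *Tcf3* had the narrowest range, 6.57-fold, and its neighbours in the order overlapped down to the last step, to red blood cells (0.138 ± 0.023). CM groups held 0.230 to 0.413 of any E-protein gene on average, with *Tcf4* and *Tcf12* highest in the sinus venosus or AV canal CMs.

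Among the ID factor genes, *Id3* and *Id1* were higher in cushion than in chamber EdCs in every library, and the genotypes overlapped for *Id3* in both. In chamber EdCs *Id3* was 6.55 and 7.36 UMIs per 10000 in controls and 6.72 and 7.20 in *Tie2-cko* (log2 fold change −0.05 ± 0.13). In cushion EdCs it was 11.2 and 12.996 against 11.9 and 12.6 (−0.062 ± 0.148, unadjusted p = 0.686). The cushion level was 1.71 to 1.77 times the chamber level in all 4 libraries. *Id1* followed the same order, with 1.98 and 2.08 in control and 2.28 and 2.17 in *Tie2-cko* chamber EdCs, and 4.19 and 3.82 in control and 4.07 and 3.40 in *Tie2-cko* cushion EdCs. The *Id1* groups did not overlap in chamber EdCs, although the fitted log2 fold change was only 0.022 ± 0.129.

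*Id2* and *Id4* had other patterns. *Id2* was 1.83 and 3.63 in control chamber EdCs and 2.03 and 3.22 in *Tie2-cko*, so that libraries of 1 genotype differed more than the genotypes did. Unlike *Id1* and *Id3* it was lower in cushion than in chamber EdCs, at 0.621 to 0.894 times the chamber level in the 4 libraries. *Id4* was at 0.00636 to 0.0378 in chamber EdCs, which rests on 10 to 19 UMIs per library, and no difference was detectable at this depth.

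**Figure D2:**
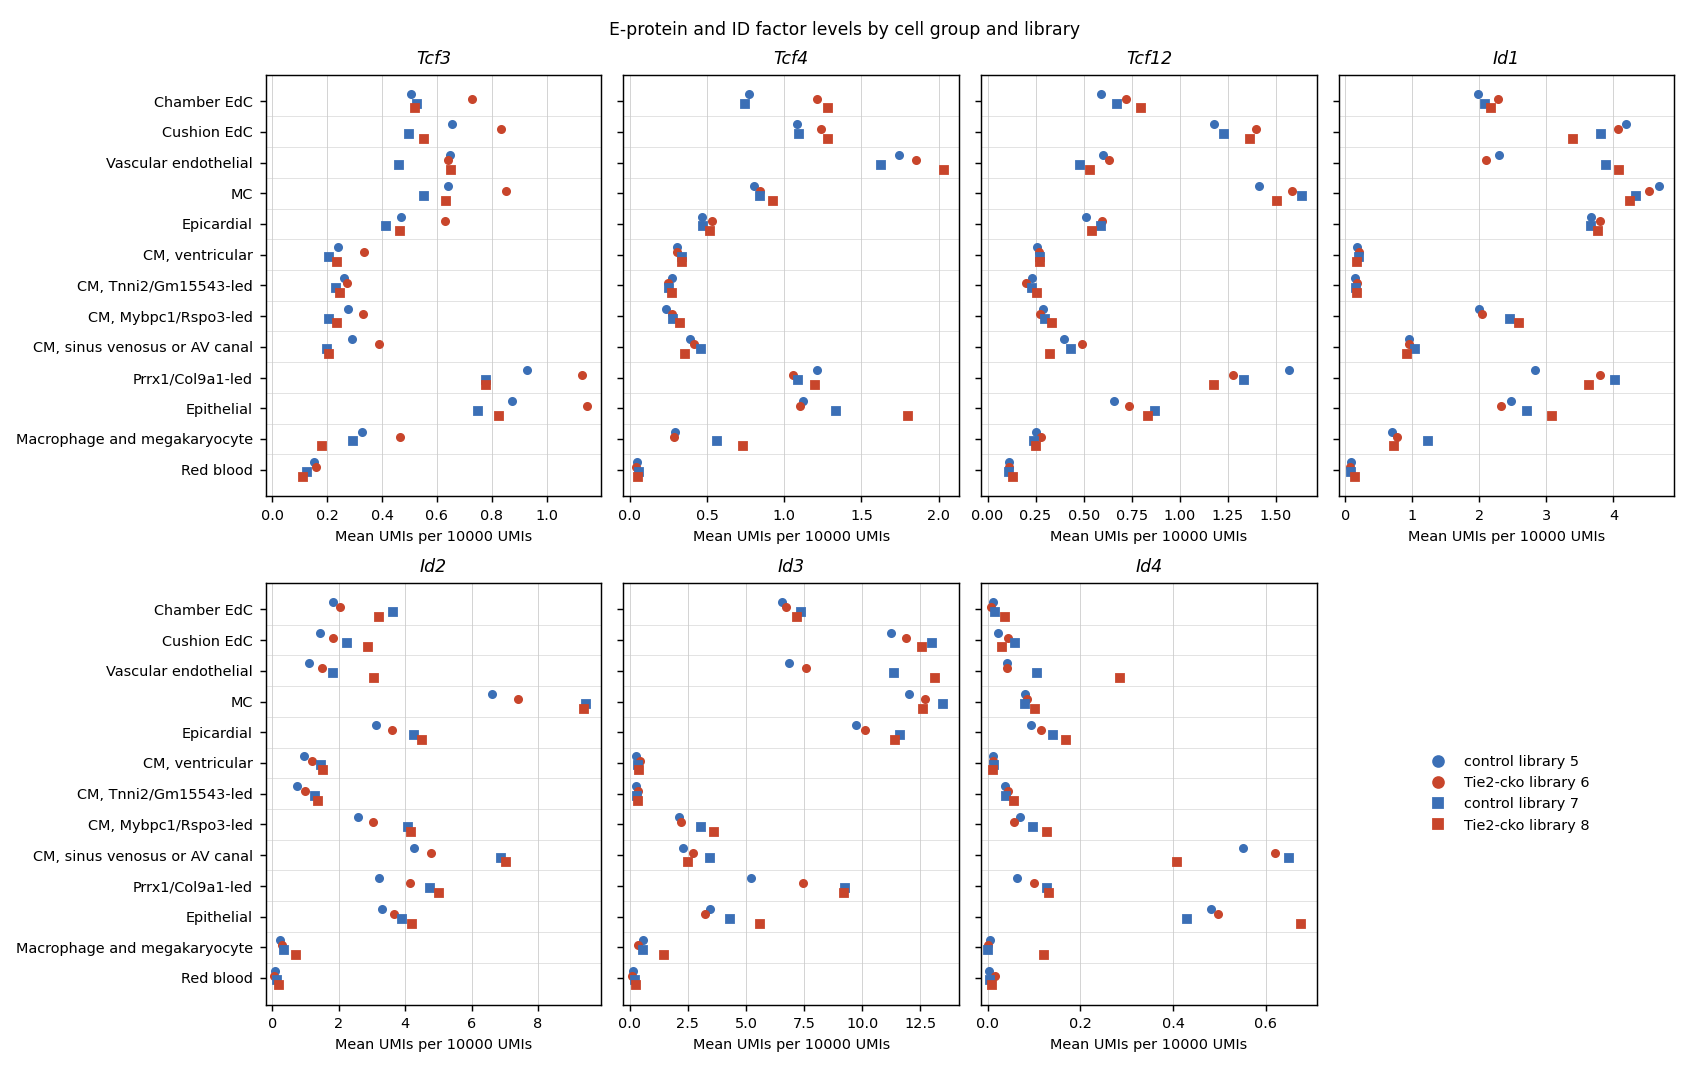
Mean UMIs per 10000 UMIs of the 7 genes (1 panel each, axes scaled per gene) in 13 cell groups, with a point for each library (control, blue; *Tie2-cko*, red). *Id1*, *Id2* and *Id3* were highest in MCs, *Id4* in sinus venosus or AV canal CMs and *Tcf4* in vascular endothelial cells, and red blood cells were lowest on average for every gene.

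Across these 13 cell groups the *Id* genes ranged further than the E-protein genes, 44.9-fold (*Id1*) to 78.4-fold (*Id3*). *Id1*, *Id2* and *Id3* were highest in MCs, with 4.45 ± 0.19, 8.21 ± 1.42 and 12.7 ± 0.6 (SD, n = 4 libraries). For *Id1* the lowest MC library (4.24) lay just above the highest of cushion EdCs (4.19, mean 3.87 ± 0.35). For *Id3* the libraries of the 2 cell types overlapped (12.2 ± 0.8 in cushion EdCs). Within the myocardium the *Id* genes separated the CM groups. *Id1* and *Id3* were 2.27 ± 0.30 and 2.75 ± 0.73 in CMs led by *Mybpc1* and *Rspo3*, but 0.187 ± 0.018 and 0.364 ± 0.063 in ventricular CMs. *Id2*, known from the developing conduction system, was 5.74 ± 1.43 in sinus venosus or AV canal CMs, second to MCs and overlapping them. *Id4* was highest in the same CMs (0.558 ± 0.107), with epithelial cells overlapping (0.521 ± 0.107), and every library of both lay above the other 11 of the 13 groups.

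Summed over the family, chamber EdCs had more E-protein UMIs in *Tie2-cko* and ID UMIs that overlapped. The E-protein sum was 1.87 and 1.95 in controls and 2.66 and 2.60 in *Tie2-cko*, and the ID sum 10.4 and 13.1 against 11.03 and 12.6. The ratio of ID to E-protein level was 5.55 and 6.71 in control chamber EdCs and 4.15 and 4.86 in *Tie2-cko*, without overlap. As this ratio holds the *Tcf4* value that chose the set, it is a description. It adds genes captured with unequal efficiency, so it is compared between cells and libraries and does not measure ID against E-protein amounts. *Id3* alone made up 56.2% to 63.2% of the ID sum in chamber EdCs. In cushion EdCs the ratios overlapped (5.79 and 6.78 against 5.13 and 5.89), as they did in vascular endothelial cells (3.43 and 6.71 against 3.59 and 6.39). Of the 13 groups the ratio was highest on average in epicardial cells (10.1 to 13.3) and lowest in red blood cells (0.713 to 2.04). With cells thinned to 5000 UMIs, 57.2% and 59.9% of control chamber EdCs held UMIs of both an E-protein and an ID gene, against 68.3% and 66.9% of *Tie2-cko* cells. Since 96.6% to 99.1% of these cells held an ID UMI, this share nearly repeats that of cells with an E-protein UMI. The latter was 58.9% and 60.4% in controls against 69.8% and 67.6%. It too holds the *Tcf4* value that chose the set and is a description.

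**Figure D3:**
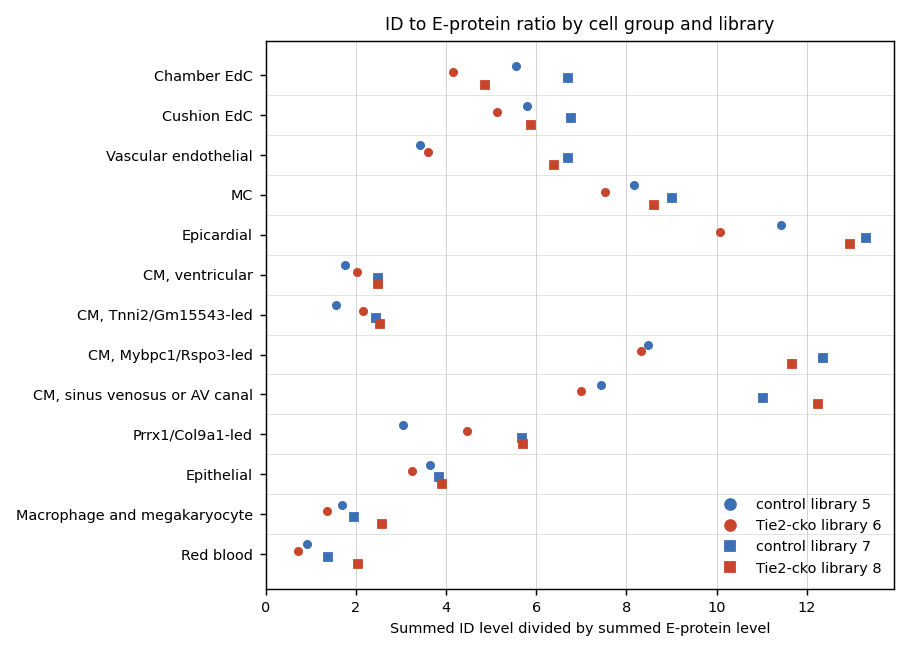
Summed level of *Id1* to *Id4* divided by the summed level of *Tcf3*, *Tcf4* and *Tcf12*, per cell group and library (control, blue; *Tie2-cko*, red). Chamber EdCs stood at 5.55 and 6.71 in controls and at 4.15 and 4.86 in *Tie2-cko*, and epicardial cells, highest on average, at 10.1 to 13.3.

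Outside chamber EdCs the genotype difference of the members could be tested, and none passed. Of all genes tested by edgeR, 5 of 11899 passed in epicardial cells and none in the other groups tested. Even *Tek* did not pass in cushion EdCs (log2 fold change −2.49 ± 0.28, edgeR adjusted p = 0.0590). A member that did not pass is therefore not shown to be unchanged. Over 13 other cell groups, counting CMs as a whole and by group, 89 tests of a member were made with edgeR (quasi-likelihood, on counts summed per library), adjusted over all genes by the Benjamini-Hochberg procedure, and the lowest adjusted p was 0.997. All 7 members passed the filter on low counts except *Id4* in red blood cells and in the macrophage and megakaryocyte cluster. Unadjusted p-values under 0.05 were reached by 2 of the 89 with edgeR, and by 2 with DESeq2, which also gave none after adjustment. Of all genes, 85 of 9269 in vascular endothelial cells and 93 of 12242 in CMs led by *Tnni2* and *Gm15543* reached it with edgeR. By edgeR these were *Id2* in vascular endothelial cells, with 1.10 and 1.83 in controls and 1.51 and 3.07 in *Tie2-cko* (log2 fold change 0.77 ± 0.32, SE, unadjusted p = 0.0453), and *Id3* in CMs led by *Tnni2* and *Gm15543*, with 0.261 and 0.287 against 0.341 and 0.338 (0.53 ± 0.21, unadjusted p = 0.0381). With libraries 5 and 6 and libraries 7 and 8 taken as pairs, which the labels do not state, these 2 had adjusted p-values of 0.0473 and 9.64e-06, and 11 and 121 of all genes passed in these groups. With 2 libraries per genotype an exact permutation of the libraries cannot go below p = 0.33, and the p-values measure the spread between these libraries.

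Members were also counted where the genotypes did not overlap, and each count was read against the share of all genes tested with the same order. In chamber EdCs 3 of 7 members were higher in *Tie2-cko* (*Tcf4*, *Tcf12* and *Id1*) and none lower, where 20.1% of genes were higher and 13.9% lower, a contrast the choice of the set had used. In cushion EdCs 2 of 7 were higher (*Tcf4* and *Tcf12*) and none lower, against 17.6% and 10.3% of genes. In MCs 2 of 7 were higher (*Tcf4* and *Id4*) and none lower, against 15.5% and 8.23%. In epicardial cells 2 of 7 were higher (*Tcf4* and *Id1*) and none lower, against 15% and 10%, and 0.042% of genes passed the edgeR test. Vascular endothelial cells had 1 of 7 higher (*Tcf4*) and none lower, against 17.7% and 8.97%. Epithelial cells had 1 of 7 higher (*Id4*) and none lower, against 18.2% and 7.9%. The macrophage and megakaryocyte cluster had 1 of 6 higher (*Tcf12*) and none lower, against 16% and 8.71%. There the edgeR log2 fold change of *Tcf12* had the other sign (−0.14 ± 0.30). Red blood cells had 1 of 6 higher (*Tcf12*) and none lower, against 11.2% and 13.5%. The cluster led by *Prrx1* and *Col9a1* had none higher and 1 of 7 lower (*Tcf12*), against 18.8% and 12.3%. In the whole of the CMs none was higher and 1 of 7 was lower (*Id4*), against 13.6% and 6.96%. By CM group, ventricular CMs had 1 higher (*Id3*) and none lower, against 16.2% and 7.51%, and CMs led by *Tnni2* and *Gm15543* had 3 higher (*Id1*, *Id3* and *Id4*) and none lower, against 12% and 12.9%. Sinus venosus or AV canal CMs had none higher and 1 lower (*Id1*), against 10.8% and 10%. CMs led by *Mybpc1* and *Rspo3* had none on either side, against 18.5% and 8.78%. *Tcf4* was thus among the higher genes in 5 of the 13 cell groups, which share their 4 libraries. Chamber EdCs, which chose the set, are among the 5, and the share of all genes higher in as many groups was not counted. No general rise of *Tcf4* is read from this count.

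**Figure D4:**
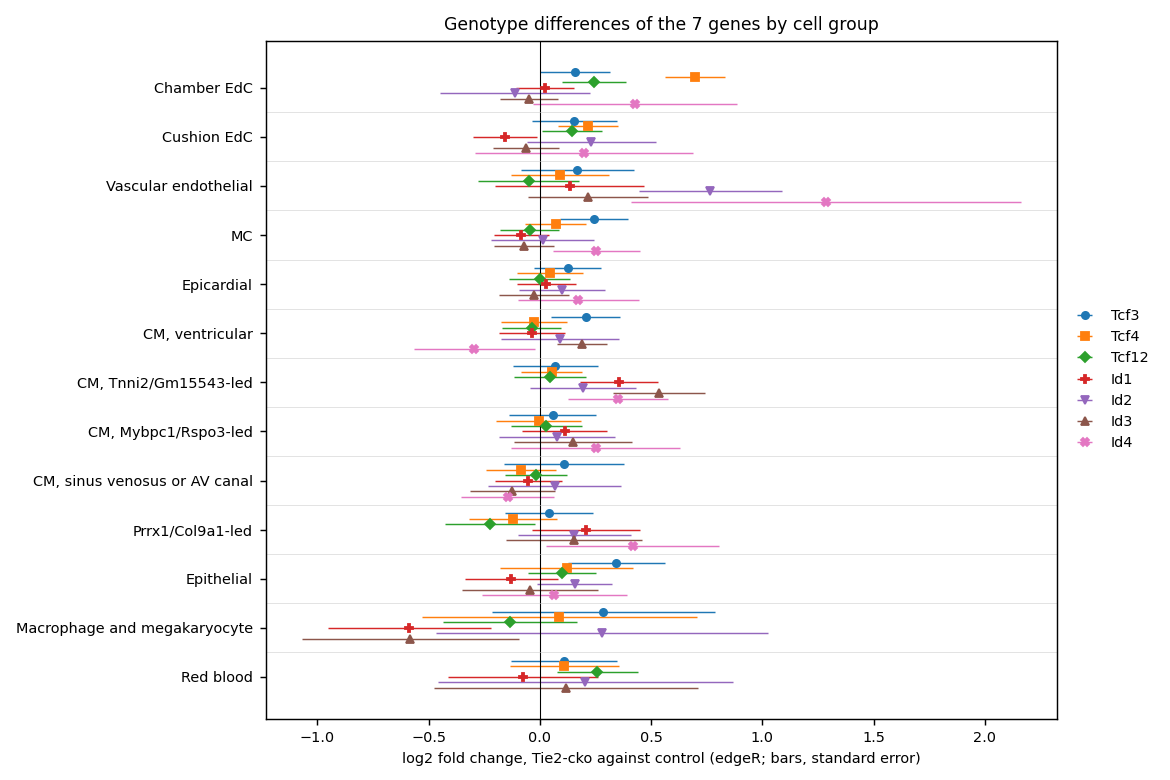
Log2 fold change of *Tie2-cko* against control by edgeR, with standard errors as bars, for the 7 genes in 13 cell groups (CMs by group). *Tcf4* in chamber EdCs stood at 0.70 ± 0.14, and no value outside chamber EdCs passed an adjusted p of 0.05.

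*Id2* and *Tcf3* differed between libraries whatever the genotype. *Id2* was higher in both libraries 7 and 8 than in both libraries 5 and 6 in 13 of 13 cell groups, where 17.5% to 27.1% of all genes had this order per group. In MCs, for example, it was 6.62 and 7.41 in libraries 5 and 6 and 9.44 and 9.38 in libraries 7 and 8. The same order was seen for *Id3*, *Id4*, *Tcf4*, *Tcf12* and *Id1* in 9, 6, 5, 3 and 3 of the 13 groups. *Tcf3* was highest in library 6 in 12 of 13 groups, an order that 25.4% to 44.7% of all genes had. It was also lower in both libraries 7 and 8 than in both libraries 5 and 6 in 11 of 13 groups. The share of all genes with that lower order was not counted. Library 6 had the most UMIs per cell, and libraries 5 and 6 held 528 and 561 cells of a cluster led by *Cxcl13* and *Barx1*, against 3 and 1 in libraries 7 and 8. The part of these features in the patterns above was not tested.

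**Figure D5:**
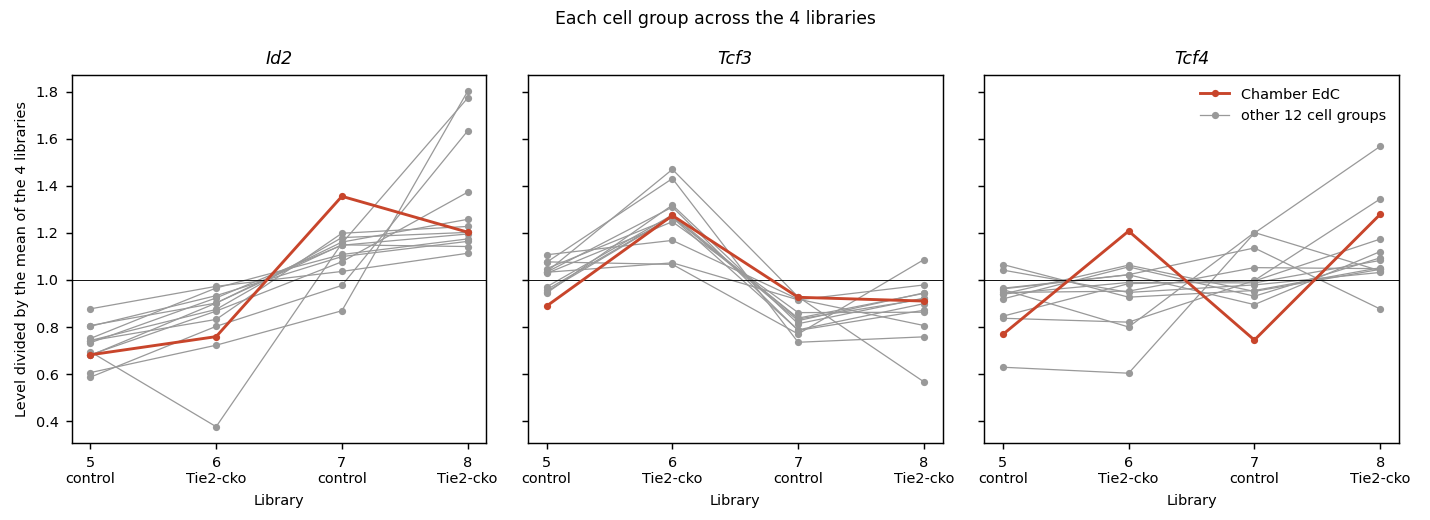
Level of *Id2*, *Tcf3* and *Tcf4* in each library divided by the mean of the 4 libraries, with a line for each of 13 cell groups and chamber EdCs in red. *Id2* was higher in libraries 7 and 8 in 13 of 13 groups, *Tcf3* highest in library 6 in 12 of 13, and *Tcf4* in chamber EdCs was high in libraries 6 and 8.

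The other proteins of the pathway were read from 3 lists, tissue-restricted bHLH partners (38 genes), LIM-domain cofactors that bridge bHLH pairs (12 genes) and BMP ligands, receptors, SMADs and antagonists (28 genes). Outside chamber EdCs no gene of these lists passed the adjusted threshold in the 8 other named cell types, by edgeR or by DESeq2. Of all genes tested by edgeR, 5 of 11899 passed in epicardial cells and none in the other named types. Unadjusted p-values under 0.05 by edgeR were reached by 2 of 9 bHLH partners tested in cushion EdCs, 1 of 16 in CMs and 1 of 11 in MCs, and by no gene of the other lists there, while 225 of 11248, 61 of 15643 and 133 of 12708 of all genes tested reached it in these cell types. The median log2 fold change in cushion EdCs was 0.20 for the bHLH partners, 0.18 for the cofactors and 0.097 for the BMP list, beside 0.0031 for all genes tested.

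In chamber EdCs the lists are described only. Of 11 bHLH partners tested 6 had a log2 fold change above 0 and 5 below (median 0.012), of 10 cofactors 7 and 3 (median 0.16), and of 19 BMP genes 14 and 5 (median 0.27), beside a median of 0.0054 for all genes. *Hand2*, a partner with a role in ventricles and cushions, was 1.61 and 1.49 in controls and 2.19 and 1.96 in *Tie2-cko*. *Twist1*, a factor of mesenchyme, was 0.341 and 0.408 against 0.520 and 0.622, and in neither gene did the genotypes overlap. *Lyl1*, a partner of E-proteins in blood and endothelium, was 0.487 and 0.503 against 0.365 and 0.340, and thus lower in *Tie2-cko*. Its relative *Tal1* overlapped, with 0.237 and 0.231 against 0.263 and 0.233. *Smad7*, an inhibitory SMAD that is itself induced by the pathway, was 0.573 and 0.501 against 0.770 and 0.824. The endothelial BMP co-receptor *Eng* overlapped (2.66 and 1.78 against 2.91 and 2.58). *Bmpr2*, the type II BMP receptor gene, had 0.662 and 0.614 in controls against 0.670 and 0.816, without overlap. *Tmem100*, an endothelial gene induced by BMP signalling, overlapped, with 0.958 and 0.757 in controls against 0.817 and 0.506. *Lmo4*, a LIM-only cofactor, had 1.45 and 1.91 in controls against 1.92 and 2.31, without overlap but with the nearest libraries almost level. *Ssbp4*, a gene of single-stranded DNA-binding cofactors, overlapped, with 1.20004 and 0.941 in controls against 1.08 and 0.822. *Ssbp3*, of the same cofactor family, overlapped, with 0.597 and 0.660 in controls against 0.629 and 0.573. *Cbfa2t3*, a corepressor that binds E-proteins, overlapped, with 0.432 and 0.561 in controls against 0.432 and 0.476.

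Likeness of pattern was measured by Pearson's r of log2(UMIs per 10000 + 0.1) over 36 means, those of 9 cell types in 4 libraries, among 7503 genes. These points share libraries, depth and the clustering, so r is a description. *Id1* and *Id3* were the most alike of the 21 pairs of members (r = 0.957), and *Tcf12* and *Id4* the least (r = 0.271). *Tcf12* was closer to *Id1* (0.891) and *Id3* (0.886) than to *Tcf3* (0.830) or *Tcf4* (0.765). The genes most like *Tcf4* were *Smarcd1*, *Casd1* and *Lpar6* (0.955, 0.946 and 0.945), and those most like *Tcf12* were *Zfp704*, *Usp22* and *Erf* (0.963, 0.960 and 0.954). *Tcf3* was most like *Rbm15b*, *Zkscan1* and *Fam32a* (0.943, 0.942 and 0.936). For the ID factor genes these were *Arf4*, *Slc39a10* and *Id3* for *Id1* (0.961, 0.958 and 0.957), *Eid1*, *Glt8d1* and *Arhgap5* for *Id2* (0.949, 0.942 and 0.940), *Arf4*, *Zfyve16* and *Efemp2* for *Id3* (0.973, 0.971 and 0.969) and *Acsl3*, *Igdcc3* and *Tox3* for *Id4* (0.901, 0.900 and 0.887).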

How the data were processed

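The authors deposited UMI counts for each gene in each barcode, without normalization. They come from Cell Ranger, version 6.1.2 by the file headers (the methods name another version), on mm10 as given in the submitters' processing notes. The annotation is not given in the sources used here. Genotypes came from the labels. The members, lists and markers were chosen with earlier results of these data known.

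Barcodes were kept from 500 genes and 1000 UMIs upward if mitochondrial UMIs did not exceed 10%, and the highest Scrublet scores (scanpy 1.11.5) removed at 0.8% per 1000 barcodes. Seurat 5.3.0 clustered the cells without integration (2000 variable genes without 88 genes compared here, 30 components, 20 neighbours, resolution 0.8). A cluster was named where at least 3 markers and over 0.5 of a list were at 0.25 or more of their highest cluster level. Clusters under 0.333 of the median UMIs stayed unnamed, and MCs also needed *Sox9*, a condition set after the clusters were seen.

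Counts summed per library and cell type were tested with edgeR 4.0.16 (TMM, filterByExpr, quasi-likelihood, R 4.3.3), adjusted by Benjamini-Hochberg over all genes. DESeq2 1.42.0 was an alternative. On simulated data in which 200 genes had a log2 change of 1, edgeR recovered 129 in chamber EdCs with 35 false calls and 90 in cushion EdCs with 7. Named genes were the members, *Tek*, the aliases *Tcf7l1* and *Tcf7l2*, the 4 list genes highest in chamber EdCs, list genes past the threshold, and the 3 genes most like each member.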

Additional observations from a re-analysis of the deposited data

Results flagged for a closer look

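Among the 13 cell groups, with CMs by group, 2 members had both *Tie2-cko* libraries above both controls in some groups and below them in another. *Tcf12* was higher in 4 groups and *Id1* in 3, and each was lower in 1. For each, 1 of the higher groups is set against the lower group here. *Tcf12* was 0.1096 and 0.113 in control red blood cells and 0.113 and 0.134 in *Tie2-cko* (log2 fold change 0.26), but 1.57 and 1.33 against 1.28 and 1.18 in the cluster led by *Prrx1* and *Col9a1* (−0.22), and the log2 fold changes differed by 0.48. *Id1* was 0.143 and 0.159 in controls and 0.177 and 0.181 in *Tie2-cko* in CMs led by *Tnni2* and *Gm15543* (0.36), but 0.953 and 1.04 against 0.947 and 0.917 in sinus venosus or AV canal CMs (−0.052), and these differed by 0.41. Neither difference was tested. The nearest libraries of the 2 genotypes were almost level for *Tcf12* in red blood cells and *Id1* in sinus venosus or AV canal CMs. In these groups 10% to 12.3% of all genes were on the side named.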

How the results depend on the processing

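The *Tcf4* log2 fold change in chamber EdCs was 0.68 to 0.70 with other size factors, DESeq2, no filter on low counts, library pairs as a block, a stricter cell filter, no removal of doublets, a resolution of 1.2, the members among the variable genes, and, an alternative chosen after seeing the data, with a cluster of few-UMI cells with chamber markers added. It was 0.59 to 0.80 with 1 library left out. The few-UMI cluster brought 41, 29, 26 and 31 *Tcf4* UMIs in libraries 5, 6, 7 and 8, beside 589, 757, 809 and 959 in chamber EdCs. Adding it could therefore hardly change the value. In that cluster itself *Tcf4* overlapped between genotypes, at 0.371 and 0.294 in controls against 0.357 and 0.534 in *Tie2-cko*. In the subsets without vascular or cushion markers, also chosen after seeing the data, the *Tie2-cko* to control ratio of the level was 1.68 and 1.82, beside 1.64 in all chamber EdCs. No member passed the threshold in cushion EdCs or the other named types under these alternatives (0 to 0 with 1 library left out), except 1 in the other named types with libraries 5 and 6 and libraries 7 and 8 as a block. That block also gave 11 calls of list genes against 0 without it. In chamber EdCs they were *Eng*, *Bmp2*, *Bmp6*, *Lmo4*, *Runx1t1*, *Hand2*, *Smad7*, *Lyl1* and *Tmem100*, the last 2 of them lower, where the block called 825 of all 11481 genes against 1 without it. The others were *Bmp2* in CMs (79 of 15643 genes called) and *Hand1* in MCs (102 of 12708). It leaves 1 residual degree of freedom per gene. Of 941 other alternative values outside chamber EdCs, 132 had the opposite sign without passing the test. For *Id2* in chamber EdCs the value was −0.63 to 0.43 with 1 library left out, so that its sign rests on single libraries. The study's methods state that control and mutant libraries were somite-matched and shared a sequencing lane, but not which library matched which. The labels give control and *Tie2-cko* libraries no shared replicate number, so pairing 5 with 6 and 7 with 8 is an assumption. The main tests used no pairing. Levels under 0.02 rest on few UMIs.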

Other observations

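*Tcf7l2*, which encodes the Wnt effector also called TCF4, was 0.227 and 0.298 in control chamber EdCs and 0.374 and 0.345 in *Tie2-cko*, and in cushion EdCs 0.339 and 0.318 against 0.467 and 0.445. In neither did the genotypes overlap. In cushion EdCs the edgeR log2 fold change was 0.36 ± 0.15 (unadjusted p = 0.0375) and did not pass after adjustment. *Tcf7l1*, also called TCF3, was 0.222 and 0.214 in control chamber EdCs and 0.186 and 0.150 in *Tie2-cko*, and overlapped in cushion EdCs.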
